A study of Mus musculus with 7 samples.

Results

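Cytosolic ribosomal protein genes are described here in cells washed from the airspaces of mouse lungs (bronchoalveolar lavage). A gene was a member if its row was protein coding and its symbol was of the Rpl or Rps form, leaving out the S6 kinases and the Rps19 binding protein. Members were also selected on their level, a mean normalized count of at least 10 over the 7 libraries. The rule found 84 of the 16476 genes in the table, 33 of the small and 51 of the large ribosomal subunit, and 12963 genes in all reached that level. Another 4 rows had a member's name but a lower mean, Rpl24 at 9.30, Rpl10-ps3 at 5.90, Rpl36al at 4.83 and Rpl13a-ps1 at 3.09. The member nearest to the limit from above was Rpl3l, with a mean of 13.6.

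The mice were C57BL/6 and had received lipopolysaccharide, a bacterial cell wall component, into the trachea 3 days earlier, and neutrophils had been depleted with antibodies. The 4 control libraries came from LysM Cre mice, which express Cre recombinase from the lysozyme M locus in myeloid cells. The 3 knockout libraries came from Netrin1loxp/loxp LysM Cre mice, in which Cre can delete Ntn1, the gene of the secreted guidance protein netrin-1, in those cells. The labels thus give Cre to both groups, without the number of alleles, lymphocytes and epithelium lie outside its main target, and no age or sex is given in the sources used here. Whether every library is a separate mouse is not stated in the labels, so the tests speak only to the scatter among the 7 libraries, part of which may be technical.

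The ribosome is built of a small subunit, which binds mRNA and decodes it, and a large subunit, which joins amino acids and releases the chain through a tunnel. Each subunit holds ribosomal RNA and 1 copy of most of its proteins, so cells make the proteins in matched amounts. Vertebrate mRNAs for these proteins typically start with a C and a run of pyrimidines, the terminal oligopyrimidine tract, through which growth signals by mTOR control their translation. Activated lymphocytes and macrophages that leave the resting state are known to make more ribosomes.

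Windows of 30 bases around the annotated transcript start are shown for some members with that feature and for Rpl22l1 and Rpl22. These members were picked after their values were seen, so the windows cannot show whether the feature goes with the fold change. They run 5′ to 3′ on the gene's strand, from 12 bases before the start, and capitals mark the longest run of C and T. The sequences are RefSeq's on GRCm38.p6, which held a window of 300 bases (250 before the start) for 62 of the 84 members.
Rpl28: cctctcgtgTCTCTCTTTCCgtctccggcc
Rpl15: ggagaaagCCTTCTTCCTTTCCTCTggcgg
Rpl38: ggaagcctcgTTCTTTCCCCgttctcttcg
Rplp2: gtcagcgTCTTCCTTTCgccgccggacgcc
Rps6: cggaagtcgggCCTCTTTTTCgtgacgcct
Rpl22l1: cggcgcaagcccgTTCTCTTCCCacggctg
Rpl22: gCCCTgggaaaagcaatagctggccgatcg
The windows lie at chr7:4792953-4792982 (plus strand) for Rpl28, chr14:18270969-18270998 (minus) for Rpl15, chr11:114668568-114668597 (plus) for Rpl38 and chr7:141447639-141447668 (plus) for Rplp2. Those of Rps6, Rpl22l1 and Rpl22 lie at chr4:86857350-86857379 (minus), chr3:28805496-28805525 (plus) and chr4:152325714-152325743 (plus). For Rpl22 the table holds another start upstream. In the Rpl28, Rpl15, Rpl38, Rplp2 and Rps6 windows the base at the start is a C followed by at least 4 pyrimidines, and in the Rpl22l1 and Rpl22 windows it is not. In the Rpl22l1 window a run of 10 pyrimidines begins at the base after the annotated start.

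That start pattern was found, on the gene's strand, in 14 of the 62 members (22.6%) and in 3.01% of the 27025 genes with a window. A run of 8 pyrimidines within 25 bases of the start was found in 53.2% of members and 22.3% of genes, and every start match that lies in so long a run is in both counts. The letters CCGGAAGT, searched on both strands of the 300 bases, were found in 19.4% of members, 4.31% of all genes and 9.43% of the genes tested. These matches describe annotated starts and are not evidence of use. Among members with a mean count of at least 500, the median log2 fold change (knockout minus control) was 0.38 for the 13 with the start pattern and 0.38 for the 44 without it.

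Ribosomal protein transcripts were higher in the knockout libraries, nearly all of them. The members took 2.39%, 2.24%, 2.40% and 2.36% of all reads in the controls (replicates 1 to 4, the order used throughout), and 3.08%, 3.28% and 2.95% in the knockouts (replicates 1 to 3). The groups did not overlap, with means of 2.35% ± 0.07 (SD, n = 4) and 3.10% ± 0.17 (SD, n = 3), a ratio of 1.32. Both subunits moved alike, from 1.03% to 1.37% of reads for the small and from 1.32% to 1.73% for the large subunit. These are shares of mRNA reads in a cell mixture, and a change in the kinds of cells and a change in RNA per cell cannot be told apart in such samples.

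**Figure D1:**
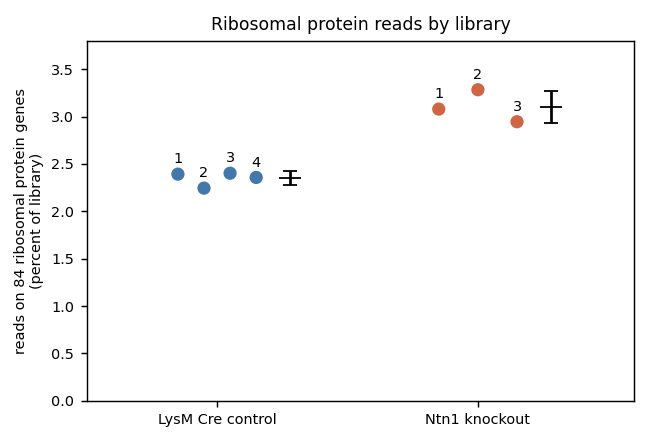
Percent of each library's reads that fell on the 84 ribosomal protein genes, with 1 numbered point per library and the mean ± SD beside each group. The 4 control libraries lie between 2.24% and 2.40%, below the 3 knockout libraries at 2.95% to 3.28%.

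Of the 84 members, 75 were called higher in knockouts and 0 lower (limma on log2 normalized counts, adjusted p under 0.05 over all genes tested); 0 were lower also at an unadjusted p under 0.05, with edgeR and with DESeq2. The same test called 10.4% of all genes higher and 11.3% lower. The members' median log2 fold change was 0.38, a fold of 1.301, with quartiles of 0.32 and 0.43, against 0.01 over all genes tested. The called members ranged from 1.20-fold to 1.74-fold. In 77 members every knockout library lay above every control library, a pattern seen in 17.4% of all genes. Tested as whole reads with edgeR, 75 members were higher too, against 10.5% of genes. The authors' deposited table also lists 75 members as higher at an adjusted p under 0.05, as were 8.92% of its genes.

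**Figure D2:**
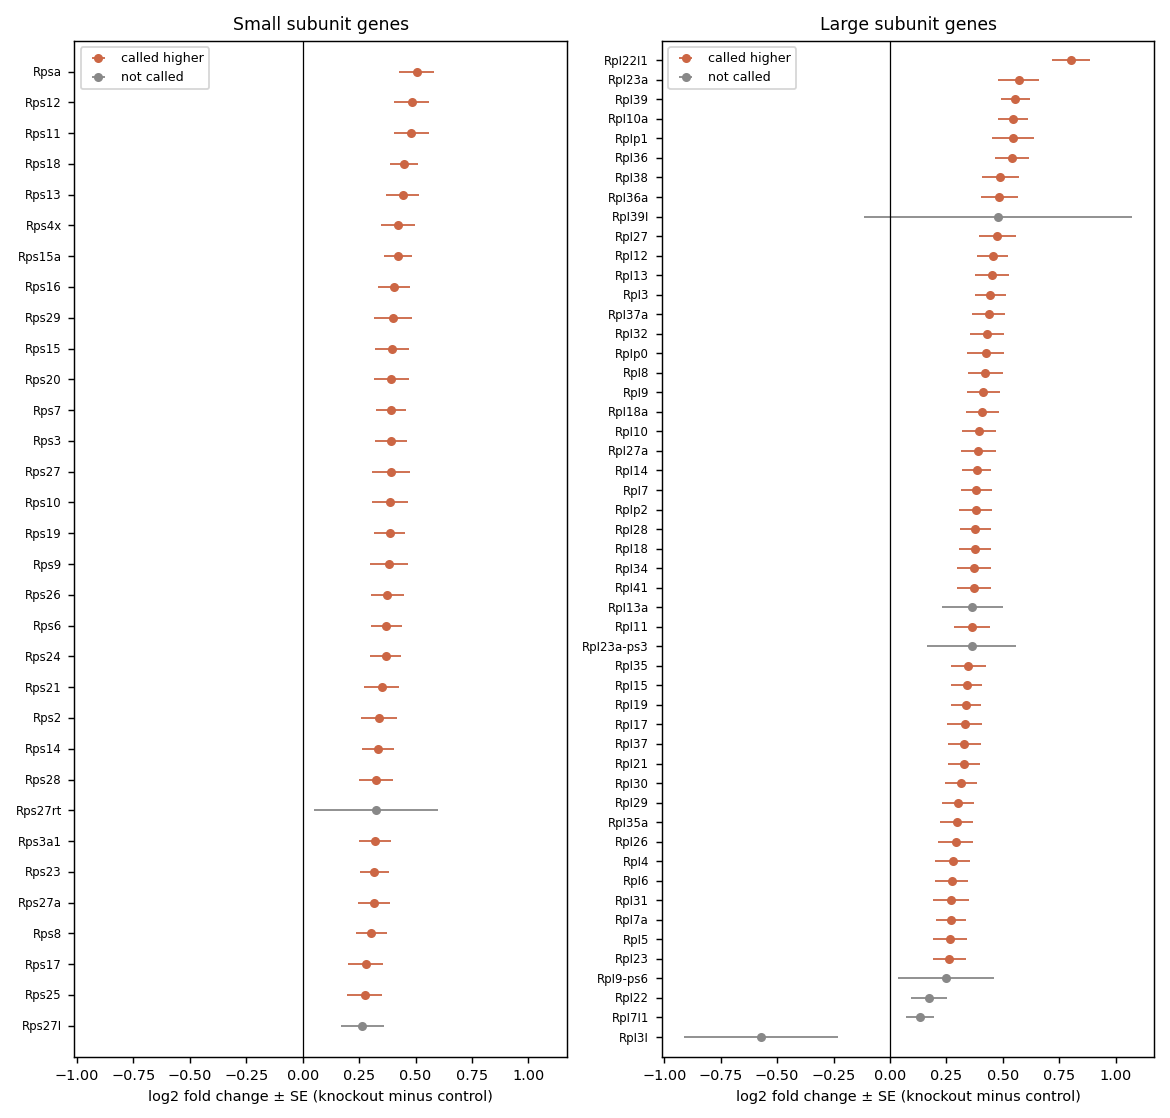
Log2 fold change (knockout minus control) ± standard error of 83 members, in order within each subunit, with called genes in orange and the others in grey. All but Rpl3l lie above 0, and Rpl22l1, at 0.80, lies apart from the rest.

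The fold changes had a SD of 0.14 log2 units over all 84 members. Over the 77 with a mean count of at least 500, which leaves out Rpl22l1 and Rpl3l, the SD was 0.08, and the median standard error of 1 gene was 0.07. These values cannot be compared directly, since shifts that a library's members share enter the standard error but cancel in the SD over genes. The small subunit had 31 of 33 members called higher, with a median of 0.39 and a range of 0.26 to 0.50. The large subunit had 44 of 51 called, with a median of 0.38 and a range of -0.57 to 0.80. Across those 77 genes, which share libraries and are not independent, the fold change had a Spearman rho of -0.15 with exon length and -0.03 with mean count. The members lie on 20 chromosomes.

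Libraries differed within groups along the same axis. The median member stood 0.07, -0.07, -0.03 and 0.03 log2 units from the control mean in the controls, and 0.42, 0.43 and 0.29 above it in the knockouts. Control replicate 2 was the lowest of the 7 libraries in 69 members. Knockout replicate 3 was the lowest knockout in 80 members, and the highest library was knockout replicate 2 in 48 and knockout replicate 1 in 35. The gap between groups was narrow: the lowest knockout divided by the highest control was 1.153 in the median member with a mean of at least 500, with a range of 0.997 to 1.33.

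**Figure D3:**
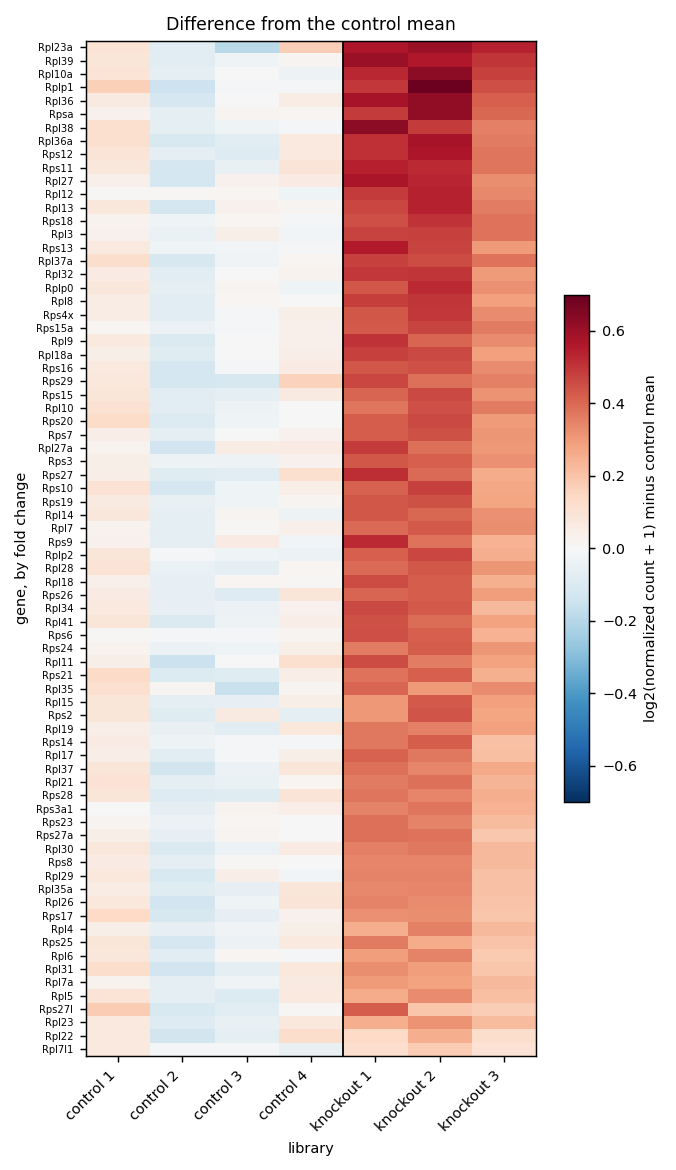
Log2(normalized count + 1) minus the control mean in each library (columns) for 76 of the members with a mean count of at least 500 (rows, ordered by fold change). Knockout replicate 3 is the palest knockout column, control replicate 2 the bluest control column, and Rpl22 and Rpl7l1 form the lowest rows.

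In the small subunit, the genes of decoding and mRNA entry (Rps2, Rps3, Rps15, Rps18 and Rps23) were all called higher, 5 of 5, with a median log2 fold change of 0.39. Rps18, at the head of the small subunit, had normalized counts of 3579, 3447, 3543 and 3490 in controls and 4811, 4998 and 4573 in knockouts. Every knockout library lay above the controls, and the fold change was 0.45 ± 0.06 (SE, limma adjusted p = 0.00231). Rps3, a protein of the mRNA entry site, rose by 0.39 and Rps23, which carries a residue of the decoding centre, by 0.32. Rps15, near the decoding site, rose by 0.40. Rps2 rose by 0.34, but was not called without control replicate 2 (0.31), control replicate 4 (0.32) or knockout replicate 2 (0.29).

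Around the mRNA exit and the platform, Rps26 rose by 0.38, Rps14 by 0.33 and Rps28 by 0.32. Without knockout replicate 2 the calls of Rps14 (0.29) and Rps28 (0.31) were lost. Rps15a, of the small subunit body, had counts of 4030, 3875, 3956 and 4094 in controls and 5362, 5543 and 5125 in knockouts. Its groups were well apart (0.42 ± 0.06 SE, limma adjusted p = 0.00306).

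Rps6 is the small subunit protein that S6 kinases phosphorylate downstream of mTOR. Its normalized counts were 3092, 3052, 3053 and 3122 in controls, and 4206, 4116 and 3649 in knockouts. Knockout replicate 3 was the lowest knockout and still exceeded every control (0.37 ± 0.07 SE, limma adjusted p = 0.00744). Rps27a, made as a fusion with ubiquitin, had counts of 4018, 3763, 3966 and 3904 in controls and 5102, 5082 and 4455 in knockouts. It rose by 0.32, and its call was lost without control replicate 2 (0.30) or knockout replicate 2 (0.29). Rps3a1 rose by 0.32, and its call was lost without knockout replicate 2 (0.29).

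In the large subunit, all 4 genes of the P stalk, which recruits and activates the elongation factors, were called higher, with a median of 0.44. Rplp1 had counts of 4222, 3411, 3743 and 3739 in controls and 5318, 6072 and 5145 in knockouts (0.54 ± 0.09 SE, limma adjusted p = 0.00517). Its highest control, replicate 1, lay below its lowest knockout. Rplp2, the partner with which Rplp1 forms dimers, rose by 0.38, and Rplp0, the base of the stalk, by 0.42. Rpl12, at the foot of the stalk, had counts of 3830, 3832, 3852 and 3732 in controls and 5343, 5541 and 4820 in knockouts. Its controls lay close together, and it rose by 0.46.

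Genes of the peptidyl transferase region and tRNA sites (Rpl3, Rpl4, Rpl8, Rpl10 and Rpl10a) were called higher in 5 of 5 cases, with a median of 0.42. Rpl10a, the L1 stalk protein near the tRNA exit site, had counts of 1823, 1639, 1713 and 1667 in controls and 2468, 2643 and 2384 in knockouts (0.55 ± 0.07 SE, limma adjusted p = 0.0015). Rpl3, which reaches towards the peptidyl transferase centre, had counts of 6199, 5874, 6245 and 5986 in controls and 8444, 8463 and 7916 in knockouts, a rise of 0.45. Both genes had no overlap between groups. Rpl8 rose by 0.42 and Rpl10, which is needed for the last step of large subunit maturation, by 0.40. Rpl4 rose by 0.28, and its call was lost without any 1 of the 4 controls (0.26 to 0.29) and without knockout replicate 2 (0.24) or 3 (0.30).

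The pair of proteins that forms a particle with 5S RNA and binds the p53 regulator Mdm2 when assembly fails was called higher as well. Rpl11 had counts of 2728, 2397, 2651 and 2870 in controls and 3641, 3399 and 3233 in knockouts, a rise of 0.36. Rpl5 had counts of 4345, 3884, 3801 and 4253 in controls and 4859, 5107 and 4701 in knockouts, a rise of 0.27. The knockouts lay above the controls, but the call of Rpl5 was lost without control replicate 2 (0.24), 3 (0.23) or 4 (0.29) and without knockout replicate 1 (0.27), 2 (0.23) or 3 (0.29).

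Of 8 genes at the exit of the nascent chain, 7 were called higher and Rpl22 was not, with a median of 0.33. Rpl39, a small protein that lines the exit tunnel, had counts of 1429, 1280, 1318 and 1367 in controls and 2051, 1984 and 1904 in knockouts (0.55 ± 0.06 SE, limma adjusted p = 0.00118). All of its knockout libraries were well above the controls. Rpl23a, a docking site for the signal recognition particle, rose by 0.57. On its exons 59.7% of bases overlap Tlcd1 on the other strand, and on those of Rpl35 66.2% overlap other genes, so without a known strand setting the source of such reads is uncertain. Rpl36 had counts of 1341, 1182, 1287 and 1328 in controls and 1914, 1975 and 1714 in knockouts, a rise of 0.54.

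Mutations in a group of ribosomal protein genes cause Diamond-Blackfan anaemia in people, a failure of red cell production. All 17 such genes on the list were called higher in knockouts, as were 75 of all 84 members and 10.4% of all genes tested. The 17 genes had a median of 0.37 and a range of 0.27 to 0.48. Their median lay next to that of all members, 0.38.

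A few ribosomal proteins have a second gene that codes for a variant, often with tissue-restricted use. Of 6 members listed here as such variants only Rpl22l1 was called. Whether the protein of each listed gene, Rpl7l1 among them, takes its partner's place in ribosomes was not tested. Rpl22l1 (ENSMUSG00000039221, chromosome 3, 28805436 to 28807424, plus strand) had counts of 310.8, 266.2, 277.0 and 267.1 in controls and 467.5, 500.9 and 496.9 in knockouts. It had the largest fold change of the 84, at 0.80 ± 0.08 (SE, limma adjusted p = 0.000772). Its partner Rpl22 (ENSMUSG00000028936, chromosome 4, 152325742 to 152334071, plus strand), an RNA-binding protein known to repress Rpl22l1, had counts of 2363, 2062, 2147 and 2450 in controls and 2482, 2684 and 2446 in knockouts. The Rpl22 groups overlapped, since knockout replicate 3 lay just below control replicate 4 (0.17 ± 0.08 SE, limma adjusted p = 0.152). Reads of Rpl22l1 were 13.1%, 12.9%, 12.9% and 10.9% of those of Rpl22 in controls and 18.8%, 18.7% and 20.3% in knockouts. That ratio, chosen after the values were seen, thus separated the groups, at 12.5% ± 1.0 (SD, n = 4) and 19.3% ± 0.9 (SD, n = 3).

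The other 5 variants were not called. Rpl7l1 had counts of 893.8, 846.4, 846.9 and 821.3 in controls and 924.8, 964.4 and 912.4 in knockouts (0.13, limma adjusted p = 0.157). Its knockouts lay above its controls by little, and as a share of Rpl7 it was 11.9% ± 0.5 (SD, n = 4) among controls and 10.03% ± 0.19 (SD, n = 3) among knockouts. Rps27l, a p53 target, had a fold change of 0.26 (limma adjusted p = 0.0807), overlapped between groups, and was called without control replicate 1 (0.32). Its partner Rps27 rose by 0.39, and Rps27l as a share of Rps27 overlapped too, at 16.1% ± 1.1 (SD, n = 4) among controls and 14.7% ± 0.7 (SD, n = 3) among knockouts. Rpl3l, a striated muscle variant, was at 11.5 to 21.5 in controls and 6.32 to 14.4 in knockouts, the 1 member with a negative value (-0.57, limma adjusted p = 0.261). Rpl39l, a variant best known from testis, ranged from 2.66 to 18.8 in controls and from 9.03 to 22.3 in knockouts, so no direction can be read. Rps27rt was at 25.4 to 38.9 in controls and 27.1 to 54.8 in knockouts, with overlap.

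**Figure D4:**
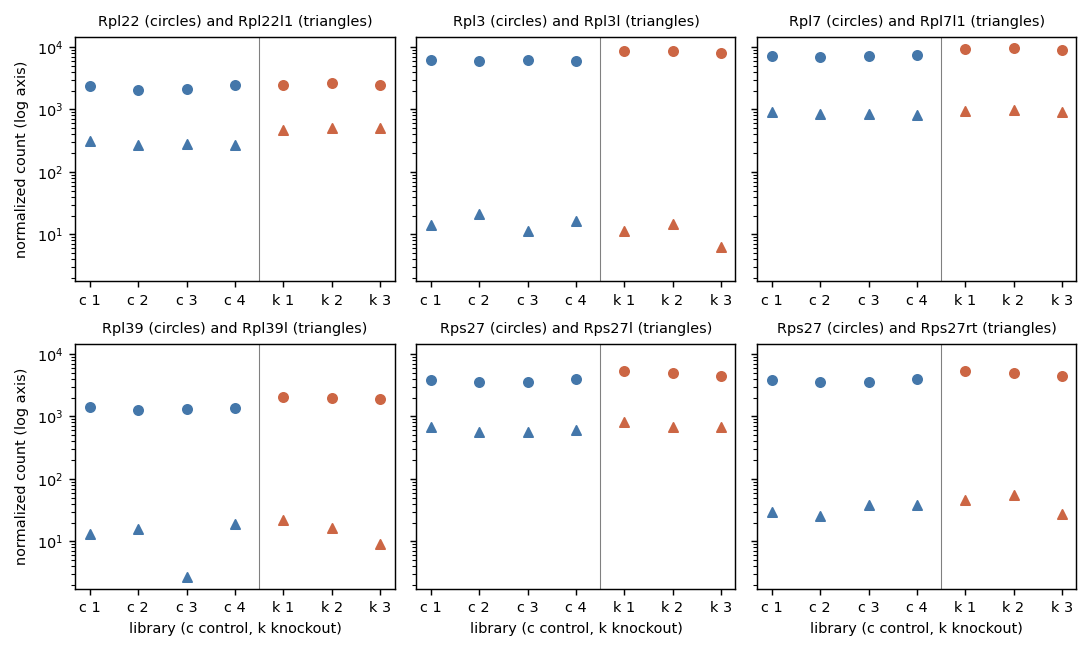
Normalized counts on a log axis in each library for 6 variant genes (triangles) and their partners (circles), controls in blue and knockouts in orange. Rpl22l1 is the triangle series that steps up between groups, while its partner Rpl22 overlaps.

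When each library was centred on its median well-measured member, so that only differences among ribosomal protein genes remained, 1 member was higher and 3 were lower. This scale was chosen after the data were seen, and on it 3.11% of all genes were called higher and 50.6% lower. Rpl22l1 was higher by 0.42 relative to the median member (limma adjusted p = 0.00536). Rpl7l1 was lower at -0.24 (limma adjusted p = 0.0242), Rpl3l at -0.95 (limma adjusted p = 0.0408) and Rpl22 at -0.21 (limma adjusted p = 0.047). Next in order came Rpl39 at 0.18 and Rpl10a at 0.17, which were not called.

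Levels were compared between genes per length, first as reads per kilobase of annotated exon, scaled to library size. The highest members were Rplp1 at 748, Rps3a1 at 626, Rps15 at 579 and Rplp0 at 568, and their neighbours in that order overlapped over libraries. With the median length of a gene's coding transcripts in place of all its exons the order changed, to Rps24 at 1156, Rps27 at 1014, Rpl10 at 775 and Rplp1 at 748. Per exon, the lowest were Rpl3l at 0.682, Rpl39l at 1.38, Rpl9-ps6 at 3.70 and Rpl13a at 6.38. Per coding transcript Rpl3l, Rpl39l and Rpl9-ps6 were again the lowest, followed by Rps27rt at 8.24 and Rpl13a at 17.5. Rpl13a encodes a core protein of the large subunit, and 35.4% of its exon bases are shared with other genes on its strand. Its normalized counts were 152.3, 160.5, 117.7 and 151.7 in controls and 165.3, 205.8 and 190.6 in knockouts. The groups did not overlap, but it was not called (0.36, limma adjusted p = 0.0866). Rpl24, a core protein whose row fell under the level limit, shares 47.0% of its exon bases with another gene on its strand. Whether the sharing set these low counts was not tested.

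The naming pattern misses some ribosomal constituents, among them Rack1 and Fau, which were both called higher. Rack1, the signalling scaffold on the small subunit, had counts of 7887, 6873, 7267 and 7455 in controls and 9132, 9956 and 8976 in knockouts, a rise of 0.34. Fau, the fusion precursor of Rps30, had counts of 3598, 3065, 3281 and 3547 in controls and 4602, 4269 and 3950 in knockouts, also a rise of 0.34. Both genes had every knockout above every control. The call of Rack1 was lost without control replicate 2 (0.31) or knockout replicate 2 (0.30), and that of Fau without control replicate 2 (0.30) or knockout replicate 1 (0.29) or 2 (0.34).

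Other parts of the translation machinery are given by their counts and medians, and no list was tested against another. The shares over all genes tested were 10.4% called higher and 11.3% lower. Of 9 genes on the elongation factor list 5 were called higher and 0 lower, with a median of 0.29. The list includes Eef2k, Dph5 and Eef1e1, which are not themselves elongation factors. Eef1b2, a subunit of the exchange factor that reloads the tRNA carrier, had counts of 3062, 2749, 2963 and 3061 in controls and 4007, 4128 and 3741 in knockouts, a rise of 0.42. Eef1g, its partner, rose by 0.34. Eef1a1, the carrier itself, had a value of 0.29 (limma adjusted p = 0.131) with no overlap. The initiation factor list was taken by name, Eif and a digit, so not every gene in it is an initiation factor. It takes in Eif5a and Eif6, which are also on the elongation and ribosome assembly lists. Of its 53 genes 9 were higher and 3 lower, with a median of 0.05. Of 77 mitochondrial ribosomal protein genes 6 were higher and 0 lower, with a median of 0.10. At an unadjusted p under 0.05, 4 of these 77 were lower, and 0 with edgeR or DESeq2.

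**Figure D5:**
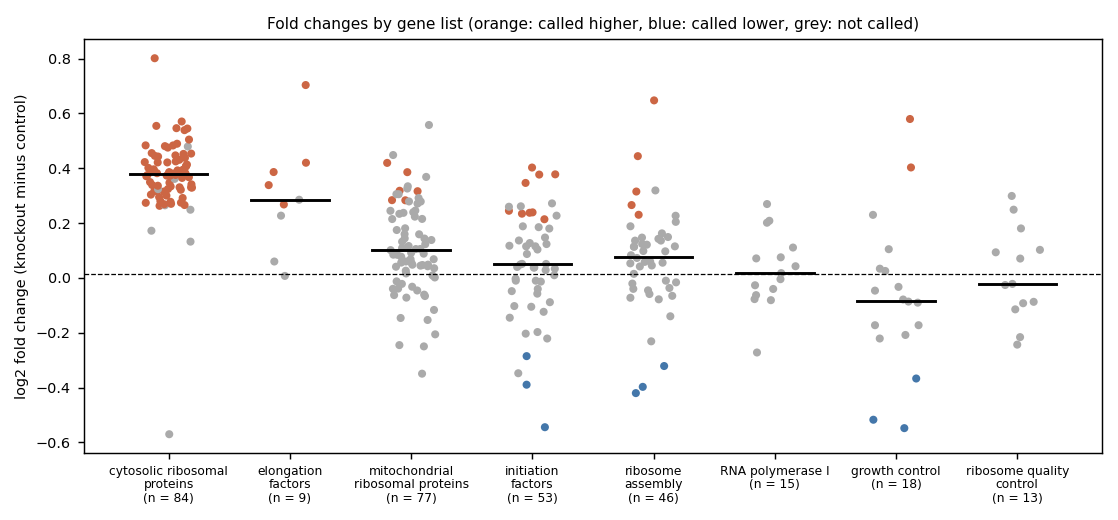
Log2 fold change (knockout minus control) of every tested gene in 8 lists of the translation machinery, with a black bar at each list's median and a dashed line at the median of all genes tested. Cytosolic ribosomal protein genes centre on 0.38, the elongation factor list on 0.29, and the other 6 lists lie between -0.08 and 0.10. Some genes belong to several lists.

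Genes that make ribosomes were called in both directions or not at all, and these lists were not tested against the ribosomal protein genes. Of 46 ribosome assembly genes 5 were called higher and 3 lower, with a median of 0.08. As 10.4% of all genes tested were called higher and 11.3% lower, calls at this rate do not set the list apart. Riok1, a kinase of late small subunit assembly, had counts of 575.9, 664.4, 688.5 and 702.2 in controls and 1037, 993.2 and 1054 in knockouts, a rise of 0.65. Dkc1, which modifies ribosomal RNA, rose by 0.32. Gnl3, a nucleolar GTPase, fell by 0.32 on the log2 scale, and Utp20, a factor of small subunit processing, fell by 0.40. Without knockout replicate 2 Dkc1 (0.30) and Utp20 (-0.39) were not called. Of 15 genes of RNA polymerase I transcription, which makes ribosomal RNA, 0 were called in either direction by limma, edgeR or DESeq2, with a median of 0.02; at an unadjusted p under 0.05, 2 were higher and 1 lower. Of 13 genes of ribosome quality control 0 were called by limma or edgeR and 1 (lower) by DESeq2, with a median of -0.02; at an unadjusted p under 0.05, 2 were higher and 2 lower.

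Among 18 tested genes that control ribosome synthesis with growth, 2 were called higher and 3 lower, against 10.4% and 11.3% of all genes tested. Their median was -0.08 and 6 of the 18 had a positive value, so a rise, as of Myc and Max, was not the common direction. As the list joins drivers such as Myc with inhibitors such as Tsc1, its median cannot show a direction of growth control. Myc, a transcription factor that drives ribosome production, had counts of 412.3, 488.3, 526.6 and 364.9 in controls and 582.0, 748.0 and 670.3 in knockouts, a rise of 0.58. Max, its dimer partner, rose by 0.40. Tsc1, an inhibitor of mTOR, had counts of 551.5, 617.4, 560.2 and 591.9 in controls and 392.4, 401.9 and 420.1 in knockouts, and fell by 0.52 on the log2 scale. Larp4, an RNA-binding protein, fell by 0.37 on the log2 scale. All 4 of these genes had no overlap between groups. That is a common pattern: of the 12963 genes tested, 2261 had every knockout above every control and 2119 had every knockout below. Myc was not called without knockout replicate 2 (0.49) or 3 (0.57). Larp4 was not called without control replicate 2 (-0.35) or 4 (-0.36) or without knockout replicate 1 (-0.27) or 2 (-0.36).

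Markers of several cell types moved with the groups, where 10.4% of all genes tested were called higher and 11.3% lower. All 15 natural killer cell markers were higher, and their summed normalized count was 12252 to 20062 in controls and 58233 to 64852 in knockouts. Of 14 neutrophil markers 7 were higher (16745 to 19981 against 25943 to 79155), of 12 epithelial markers 7 (573 to 759 against 1036 to 1394) and of 9 dendritic cell markers 4 (1402 to 2335 against 2936 to 5458). Of 15 T cell markers 3 were higher and 1 lower (12742 to 14176 against 12766 to 17142), and of 7 tested B and plasma cell markers 1 was higher and 1 lower (903 to 1569 against 794 to 1361). Of 14 monocyte and recruited macrophage markers 2 were higher and 7 lower (44245 to 59369 against 35496 to 55719). Of 12 resident alveolar macrophage markers 0 were called higher and 1 lower (62574 to 99195 against 77460 to 130069). Of these markers 11 had a positive value, with a median of 0.28, and 1 was higher at an unadjusted p under 0.05. Of 7 red cell markers 0 were called by limma (0 also at an unadjusted p under 0.05, with edgeR and with DESeq2), though their sum ran from 1254 to 26211 in controls and 6936 to 136707 in knockouts, with Slc4a1 at 0 in at least 1 library. The part of these cell types in the ribosomal protein result was not tested.

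Total reads were 9903284 to 13353733 per library. Ntn1 had 1, 4, 9 and 3 reads in controls and 1, 0 and 1 in knockouts, too few to check the labels. Lyz2, at whose locus Cre is inserted, split the controls: its normalized count was 76927 and 118781 in control replicates 1 and 4, 770 and 721 in replicates 2 and 3, and 910 to 1052 in knockouts. The labels do not say whether these controls carried the same number of Cre alleles, and this was not tested. Without control replicates 1 and 4, 56 members were called higher with a median of 0.43, against 4.8% of genes. Without control replicates 2 and 3, 22 were called with a median of 0.33, against 4.74% of genes. Without knockout replicate 2 the count was 51, the lowest on leaving out 1 library, against 5.35% of genes. In these reduced sets at least 82 members kept a positive value and 0 were lower.

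Ribosomal protein genes are short, with a median length of all annotated exons joined of 1755 bases against 4216 over all genes tested. The median coding transcript of members was 771 bases long. The mean exon length of the gene a read fell on was 5756 to 6021 bases in controls and 5399 to 5776 in knockouts. After removing each library's trend of counts on exon length, 64 members were higher, against 9.82% of genes, with a median of 0.27. Among the members whose fold changes are given above, Rpl4 (0.17), Rps2 (0.22) and Rps3a1 (0.19) lost their call there. That trend was fitted on the joined exons, which can far exceed the coding transcript, as for Rps24 (6256 against 525 bases). A trend on transcript length was not tested. Mitochondrially encoded genes took 1.65% to 1.93% of reads in controls and 1.84% to 2.13% in knockouts, and the part of RNA quality in the result was not tested beyond these values.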

How the data were processed

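The 7 libraries were grouped as 4 control and 3 knockout by their genotype labels. Per the submitters' processing notes, the tools were cutadapt 1.15, STAR 2.5.3a, HTSeq and DESeq2 and the build GRCm38 (mm10). No strand setting, annotation or version of HTSeq or DESeq2 is given in the sources used. The authors deposited 1 table whose signal columns are counts scaled by library size factors. Its other columns, per the file headers, are the authors' log2 fold change, its statistic (a score) and each p-value with and without adjustment.

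Every value was a whole number of reads within 0.01, so reads were recovered by division. limma 3.58.1 in R 4.3.3 (eBayes with trend) was fitted to log2(normalized count + 1) of the 12963 genes with a mean of at least 10. Benjamini-Hochberg adjusted p-values under 0.05 were called. Fold changes on this scale understate the change of low genes. Alternatives were edgeR 4.0.16, DESeq2 1.42.0 and limma-voom on recovered reads, other scalings, filters and pseudocounts, the replicate block and leaving out libraries. Only the main limma fit was tested on simulated data. Libraries of a group differed by a chi-square per gene of 7.85 to 31.8, so none were copies.

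The members and lists were chosen with earlier results of these data known. Named genes were the 8 members with the smallest p, the 4 highest and 4 lowest per length, variant copies, members of role lists of up to 5 genes, and up to 2 called genes per direction of each pathway list; cell type lists are given as a whole. Rpl22, Rpl23a, Rpl35, Eef1a1 and the members whose start sequences are shown were added after their values were seen. Positions and lengths came from GENCODE M21, which matched 99.8% of identifiers. Some genes that the rule names are not reported here.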

Additional observations from a re-analysis of the deposited data

How the results depend on the processing

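The count of 75 members higher stayed between 51 and 76, and 0 were lower, under the scalings by TMM, library size, upper quartile and size factors without ribosomal protein genes, cyclic loess, removal of the length trend, both other pseudocounts, both other filters, edgeR, DESeq2, both voom fits, leaving out any 1 library, and leaving out control replicates 1 and 4. The median was 0.27 with the length trend removed. Leaving out 1 library gave 51 to 75 members higher and medians of 0.36 to 0.43. Without control replicates 2 and 3 the count was 22.

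Replicate numbers did not pair the libraries: deviations of same-numbered libraries correlated at -0.23, -0.03 and -0.19 by title and at -0.08, -0.29 and 0.08 by description. With the replicate block by title, which leaves out control replicate 4, 14 members were called, with a median of 0.39, and 3.27% of all genes were called higher. By description, which leaves out control replicate 1, 29 were called, with a median of 0.40, and 4.56% of all genes. In both, 83 members were positive.

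Centred on the median member, an alternative added after the data were seen, 1 member was higher, 3 were lower and the median was 0.00207. By construction values under the median turn negative there. These were Rpl11 (-0.012), Rpl13a (-0.012), Rpl4 (-0.10), Rpl5 (-0.11), Rpl7l1 (-0.24), Rpl9-ps6 (-0.13), Rps14 (-0.0436), Rps2 (-0.0385), Rps23 (-0.0597), Rps26 (-0.0019), Rps27a (-0.0609), Rps27l (-0.11), Rps27rt (-0.0534), Rps28 (-0.0530), Rps3a1 (-0.0557) and Rps6 (-0.0063) among the named members. Rpl39l turned negative without control replicate 3 (-0.0694) and without control replicates 2 and 3 (-0.0728), and rose to 0.814 without knockout replicate 3 and to 1.03 without control replicates 1 and 4, and the cause was not tested. Over 34 named members, 757 alternative values kept direction and call, 101 lost the call, 4 gained it and 18 changed sign. At counts under 50, as for Rpl3l and Rpl39l, the depth could not show changes of the size seen in the other members.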
